A study of Zea mays with 36 samples.

Results

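The non-mutant shoot apical meristem of maize was described here by how brightly each spot of 2 array designs, SAM1 and SAM3, lit up with its labelled RNA. All 36 non-mutant channel readings were used of the 72 channel readings of the series, 18 on SAM1 and 18 on SAM3. The other 36 readings hold RNA of rgd2-R, a mutant whose introgression into Mo17, an inbred line, ran over 5 generations. The non-mutant samples are listed with 5 backcross generations as well. Seedlings of both genotypes grew under one controlled condition, and meristem cells were collected by laser microdissection 14 days after germination. Per the labels' protocols, RNA was extracted with a PicoPure kit, amplified in 2 rounds with a RiboAmp HS kit and labelled through amino allyl nucleotides. Each design held 6 biological replicates and each replicate 3 readings, named low, mid and high. Non-mutant RNA carried Cy5 in replicates 1 to 3 and Cy3 in replicates 4 to 6, and rgd2-R RNA carried the other dye on the same array.

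The shoot apical meristem is a small domed group of stem cells and their descendants that renews itself and sets out leaf primordia on its flanks. KNOX homeobox genes keep its cells undetermined, and their expression is lost where a leaf begins. MYB, WOX and YABBY genes act in the founder cells and the young leaf. Small cells of this kind make many ribosomes and new chromatin, while the plastids of the photosynthetic leaf develop later.

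The net signal of a spot was its mean signal minus its mean local background, in scanner intensity units. Within each reading the net signals of all spots were turned into percentiles, from 0 for the dimmest to 100 for the brightest. Percentiles were averaged over the 3 readings of a replicate, over the probes of a gene, and then over the 6 replicates, so an SD is over 6 replicates throughout. SAM1 held 19200 spots, of which 1800 carried a probe with 1 gene name, for 583 genes. SAM3 held 16000 spots, of which 1159 carried such a probe, for 598 genes. Spot brightness also depends on the length, sequence and amount of the printed probe, so the order is one of spot signal and not of transcripts per length. In RNA of a dissected dome, fewer cells of a type and less RNA per cell cannot be told apart.

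The median net signal of a reading lay between 32.0 and 1472 intensity units, and 3.56% to 12.2% of spots were not above their background. Replicates with the same dye had rank correlations over all spots of 0.913 to 0.939 on SAM1 and 0.921 to 0.962 on SAM3. Replicates with different dyes had 0.909 to 0.941 and 0.905 to 0.927. The non-mutant and rgd2-R channels of one array correlated at 0.924 to 0.980 on SAM1 and 0.926 to 0.983 on SAM3, points that share slide, probe and hybridisation. The order described below therefore lay close to that of the mutant RNA, and no genotype difference was tested.

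In SAM3 replicate 3 the low and mid readings went against their channel labels. The low reading of the channel labelled non-mutant had a rank correlation over 16000 spots of 0.859 with the high reading labelled non-mutant and of 0.961 with the high reading labelled rgd2-R. For the mid reading these values were 0.866 and 0.964. The low and mid readings labelled rgd2-R correlated at 0.976 and 0.983 with the high reading labelled non-mutant. The background moved the same way. In the other SAM3 replicates Cy3 had the higher median background in every reading, and in replicate 3 it did so only in the high reading, with 520.0 for Cy3 against 46.0 for Cy5. In its low reading the values were 19.0 for Cy3 and 157.0 for Cy5, and in its mid reading 30.0 and 210.0.

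**Figure D1:**
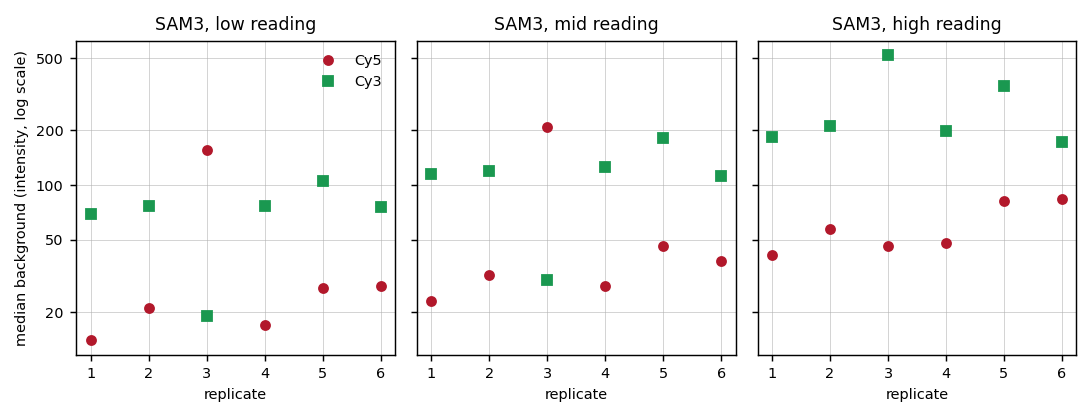
Median local background per array in intensity units (log scale) for the 6 SAM3 replicates, in the low, mid and high readings, with Cy5 as circles and Cy3 as squares. Cy3 lies above Cy5 everywhere except in the low and mid readings of replicate 3, where Cy5 stood at 157.0 and 210.0 and Cy3 at 19.0 and 30.0.

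Values are given as labelled, and the exchanged value is added for some genes. With the 2 readings exchanged, replicate 3 correlated at 0.964 with the mean of the other 5 replicates over the 598 named genes, against 0.934 as labelled. The mean percentile of a named gene shifted by a median of 0.927 points and at most 5.13 points, and 1 gene shifted by more than 5 points. The order of named genes with and without the exchange correlated at 0.998.

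Named genes spread over nearly the whole scale. The median named gene lay at percentile 51.6 on SAM1 and 53.1 on SAM3. The top band of the scale, from percentile 75 up, held 101 of the SAM1 genes and 125 of the SAM3 genes, and the bottom band, under percentile 25, held 109 and 98. A gene's SD over replicates had a median of 4.50 points on SAM1 and 5.36 points on SAM3.

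At the top of SAM1 stood GRP, named for a glycine-rich protein, at 99.2 ± 0.588 (SD, n = 6), with a lowest replicate of 98.1, a median of 99.4 and a highest of 99.7. Its net signal in the mid reading ran from 8129 to 31500 intensity units over the replicates. PLTP, a phospholipid transfer protein gene, followed at 97.2 ± 1.72, and ATP2 at 96.9 ± 0.690. The gene mbd111 encodes a methyl-CpG-binding domain protein and stood at 96.9 ± 0.496. Next came m20 at 95.7, RPL10, a protein of the large ribosomal subunit, at 95.2, and annexin2, a calcium-dependent membrane-binding protein, at 94.5. LOC542114, SE1A, nitrilase1, LOC541940, PP2C, rcalm, glb2 and LOC542697 completed the 15 highest, between 93.2 and 94.4. PP2C is named for a type of protein phosphatase, and glb2 encodes an embryo storage globulin. Several of these genes stood much lower on SAM3. There rcalm was at 97.6, GRP at 92.3, ATP2 at 89.3, RPL10 at 70.7 and PP2C at 70.0. The gene m20 was at 57.8, annexin2 at 43.7, LOC542114 at 40.0, LOC541940 at 31.8 and PLTP at 21.4.

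On SAM3 the highest named gene was tif5A, a translation initiation factor gene, at 99.2 ± 0.388, with a lowest replicate of 98.7, a median of 99.4 and a highest of 99.6. The MYB factor gene myb31, known in maize as a repressor of lignin genes, followed at 98.1 ± 0.964. LOC542641 stood at 97.8, the HMG-type chromatin gene nfd101 at 97.7 and rcalm at 97.6. Then came rps6-2, a ribosomal protein gene, at 96.8, PRO4, a profilin gene, at 96.3, ALDH10A5, an aldehyde dehydrogenase gene, at 96.1 and hsp70-4, a cytosolic chaperone gene, at 95.9. The nucleosome assembly gene nfa104 had a mean of 95.2 ± 4.18, with replicate 3 at 86.7 as labelled and 92.8 exchanged. RPS21 and rpp3, both ribosomal protein genes, nfc101 and hdt102, both chromatin genes, and the alpha tubulin gene TUA1 lay between 93.7 and 94.6. On SAM1 rcalm stood at 93.8, RPS21 at 88.6, nfd101 at 88.2, hsp70-4 at 87.7, PRO4 at 82.9 and LOC542641 at 82.2. There tif5A stood at 77.3 over 12 probes, nfc101 at 76.0, hdt102 at 64.5 and rps6-2 at 60.1. Lower on SAM1 were TUA1 at 54.6, rpp3 at 53.1 and nfa104 at 43.8.

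The 10 lowest named genes of SAM1 lay between 6.68 and 9.31 and those of SAM3 between 8.49 and 10.2. The lowest on SAM1 was pr5, a pathogenesis-related gene, at 6.68 ± 3.91, with a lowest replicate of 2.64, a median of 6.35 and a highest of 13.1. It was also among the 10 lowest on SAM3, at 10.1 ± 5.22. Among the others on SAM1 were gst19, a glutathione transferase gene, betl2, a gene of the endosperm transfer layer, bt1, the ADP-glucose transporter of the endosperm, nas1, which makes nicotianamine, and psaH, a photosystem I subunit. Of these, gst19 stood at 45.5 on SAM3, nas1 at 33.3 and psaH at 12.1. The lowest on SAM3 was opr5, an oxophytodienoate reductase gene, at 8.49 ± 9.36, whose replicates 1 and 2 stood at 18.4 and 22.5 and the other four between 1.39 and 3.69. The SAM3 group also held gln1, a glutamine synthetase gene, rca1, rubisco activase, WRKY1, a transcription factor, rop6, a small GTPase, and pip2-5, an aquaporin. Each of the 10 lowest SAM3 values rests on 1 probe, and on SAM1 gln1 stood at 76.7, rop6 at 76.6 and WRKY1, over 5 probes, at 46.8. For pr5 the net signal was not above background in 61.1% of the 18 SAM1 readings and for opr5 in 61.1% of the 18 SAM3 readings. With median signals in place of means, pr5 stood at 12.2 on SAM1.

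**Figure D2:**
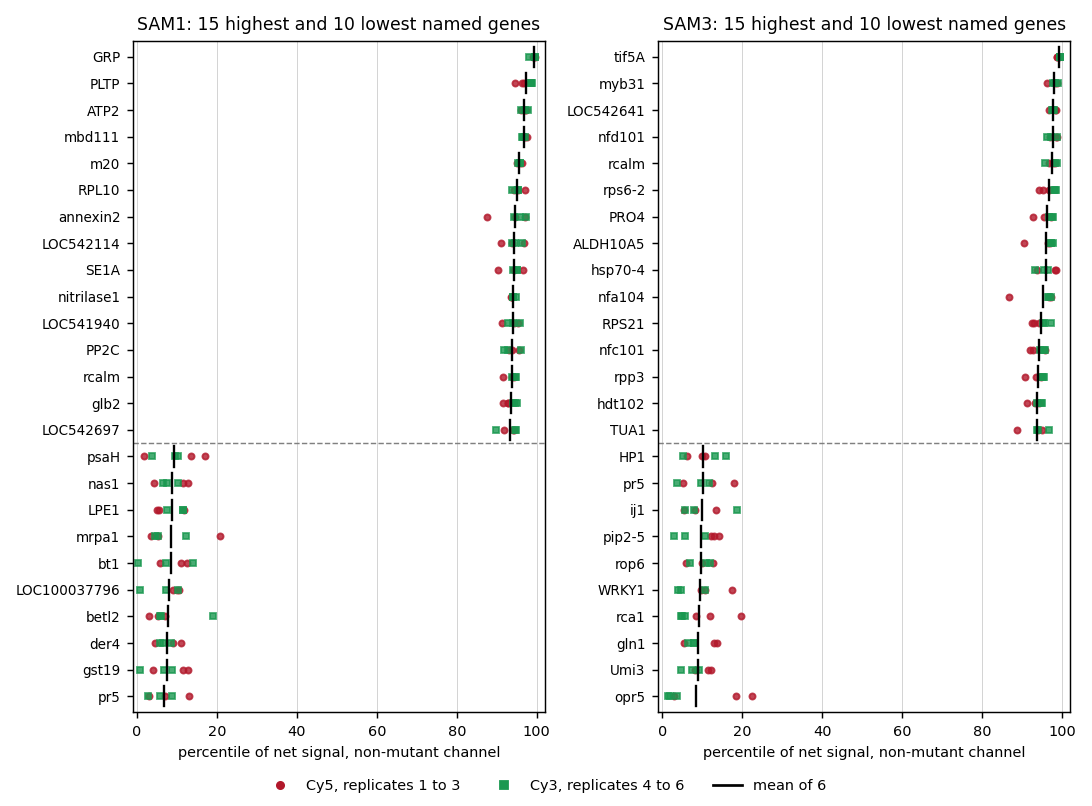
Percentile of net signal for the 15 highest and 10 lowest named genes of SAM1 (left) and SAM3 (right), 1 point per replicate (Cy5 replicates 1 to 3 as circles, Cy3 replicates 4 to 6 as squares) with the mean of 6 as a bar. The highest genes sit within a few points of each other, and no low gene reaches percentile 25.

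Within these groups the order of neighbours was not resolved. All 23 pairs of neighbours on SAM1 and all 23 on SAM3 had overlapping replicate ranges. A gene was above its lower neighbour in all 6 replicates in 1 pair on each array, mbd111 over m20 on SAM1 and tif5A over myb31 on SAM3. Genes with 1 probe made up 13 of the 15 highest and 9 of the 10 lowest on SAM1, and 7 of the 15 highest and 10 of the 10 lowest on SAM3.

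Ribosomal protein, translation factor, chromatin, tubulin and sugar metabolism genes had medians above that of all named genes on both arrays. So did leaf initiation, DNA replication, actin-binding, cell wall, heat shock and histone genes, the histone list on SAM3 with only 53.3 against 53.1. Kinesin, redox, photosynthesis, MADS box, vascular and seed storage genes had medians below it on both. The KNOX, hormone, cell cycle and epidermal lists lay above it on one array and below it on the other. The 13 ribosomal protein genes of SAM1 had a median percentile of 67.9 and the 12 of SAM3 one of 74.7. In both cases the list's median lay above that of all named genes in 6 of 6 replicates. All replicates read the same probes, so such counts, here and below, do not measure the spread over genes or probes. RPL10 was the highest of the list on SAM1 and RPS21 on SAM3 with 94.6 ± 1.79, and 3 and 6 genes were in the top band. The lists hold genes matched by the spelling of their symbol, so this one does not hold every ribosomal protein gene. Among those left out are rps6-2, at 60.1 on SAM1 and 96.8 on SAM3, and RP-P0, at 79.2 and 77.4. With both added the medians were 67.9 and 76.4. The lowest of the list were rpl30 at 47.0 on SAM1 and rps6 at 21.0 on SAM3. The 5 translation factor genes of the list had medians of 64.6 and 64.3. With 7 genes of other spellings added, among them tif5A and elfa5, at 57.8 on SAM1 and 23.6 on SAM3, the medians were 67.6 and 67.8. EF1A, which brings aminoacyl-tRNA to the ribosome, stood at 66.3 ± 2.21 on SAM1 and 68.0 ± 2.65 on SAM3, while its 24 SAM1 probes ran from 8.26 to 98.4.

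Chromatin genes had many members among the brightest on both arrays. On SAM1, 10 of 25 were in the top band, with a list median of 61.4, beside 17.3% of all named genes. On SAM3 12 of 31 were, with a median of 67.6, beside 20.9% of all named genes. The nfc genes, of the MSI1 family of histone-binding proteins, stood at 92.8 for nfc102, 93.2 for nfc103 and 76.0 for nfc101 on SAM1, and at 93.2, 83.0 and 94.4 on SAM3. The deacetylase-type gene HDT1 stood at 84.9 and 91.7. The lowest members were HDA108, a histone deacetylase, at 22.8 on SAM1 and dmt106, a DNA methyltransferase, at 14.8 on SAM3. The histone list held 4 genes on each array, with medians of 70.6 and 53.3. The centromeric histone gene cenH3 stood at 87.2 ± 5.47 and 69.0 ± 7.31, and the H2B gene his2b5 at 64.5 ± 5.15 and 91.5 ± 4.00.

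DNA replication genes had medians of 58.3 on SAM1 and 61.3 on SAM3, above all named genes in 6 of 6 replicates on both. Their highest member was pcna2, the sliding clamp of DNA polymerase, at 78.1 ± 3.39 on SAM1, with a lowest replicate of 74.6, a median of 77.2 and a highest of 82.8. On SAM3 it stood at 83.4 ± 4.09, with 76.4, 83.6 and 88.2. The helicase subunit gene MCM6 was lowest on SAM1 at 28.3, and MCM7 was lowest on SAM3 at 45.6. The origin recognition genes orc3 and orc1, on SAM3, stood at 63.8 and 61.3.

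Among cell cycle regulators, wee1, a kinase that holds back mitosis, was the highest on both arrays, at 72.3 ± 4.21 and 71.2 ± 9.58. The cyclin-dependent kinase gene cdc2 was the lowest on both, at 17.7 ± 4.15 and 10.7 ± 5.40, and its 3 probes over both arrays lay between 10.7 and 21.3. The retinoblastoma-related gene rbr3 stood at 26.6 on SAM1, over 6 probes, and at 63.0 on SAM3, over 1 probe. The list's median was 37.1 on SAM1 and 61.1 on SAM3, below and above the median named gene. Kinesin genes had medians of 36.7 and 51.3. KIN13, a kinesin, stood at 13.6 ± 6.71 on SAM1 and at 89.5 ± 3.32 on SAM3, with 1 probe on each.

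Tubulins, the subunits of microtubules, had a median of 63.7 on SAM1, where tub5 was highest at 83.1 ± 2.05, and of 79.6 on SAM3, where TUA1 was highest at 93.7 ± 2.66. TUBB2 was the lowest of the list on both, at 29.3 and 37.1. Cell wall genes had medians of 59.9 and 58.6, with the hydroxyproline-rich protein gene HRGP highest on SAM1 at 80.7 and the cellulose synthase gene cesa5 the highest of the list on SAM3 at 73.0. The list leaves out CesA-1, at 44.6 on SAM1 and 79.7 on SAM3, CesA-9, at 40.1 and 33.2, and CesA-4, at 12.3 on SAM3. With these added the medians were 54.6 and 54.8. The actin-binding genes ADF3 and prf5 stood at 75.6 and 67.9 on SAM1 and at 56.5 and 69.2 on SAM3. The remaining gene of this list, which held no gene of actin itself, was prf1, low at 27.4 ± 7.97 on SAM1. The profilin gene PRO4, at 82.9 on SAM1 and 96.3 on SAM3, is outside the list. Sugar and glycolysis genes had medians of 68.9 and 74.5. The sucrose synthase gene sus1 led on SAM1 at 78.9 and the enolase gene eno2 on SAM3 at 92.6. The fermentation gene pdc1 was lowest on both, at 18.8 ± 3.68 and 15.4 ± 3.81.

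On SAM1 the HSP70 genes of the heat shock list were high and its small heat shock genes low. There hsp70-5 stood at 92.6 ± 2.09 and hsp70-4 at 87.7, while hsp22 was at 28.9 and HSP18 at 12.1 ± 1.90. On SAM3 hsp70-4 stood at 95.9 ± 2.22, hsp70-5 at 75.2 ± 11.4, hsp101 at 37.2 and HSP18 at 18.8 ± 2.97, and the mitochondrial chaperonin genes CPN60I and CPN60II at 82.5 and 64.2. The lowest HSP70 replicate on SAM1 was 83.1 and the highest HSP18 replicate 13.8. The HSP70 genes and HSP18 are the ends of this list as ordered by the same values. The gap between them is therefore a description and no test of the gene kinds. The gene hsp22, at 28.9 ± 4.37, was not part of this comparison. Redox and stress genes had medians of 42.2 and 39.6, below all named genes in 6 of 6 replicates. Their highest members were gst41, a glutathione transferase, at 84.9 on SAM1 and dhn2, a dehydrin, at 86.3 on SAM3, or 88.3 with the readings of replicate 3 exchanged.

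**Figure D3:**
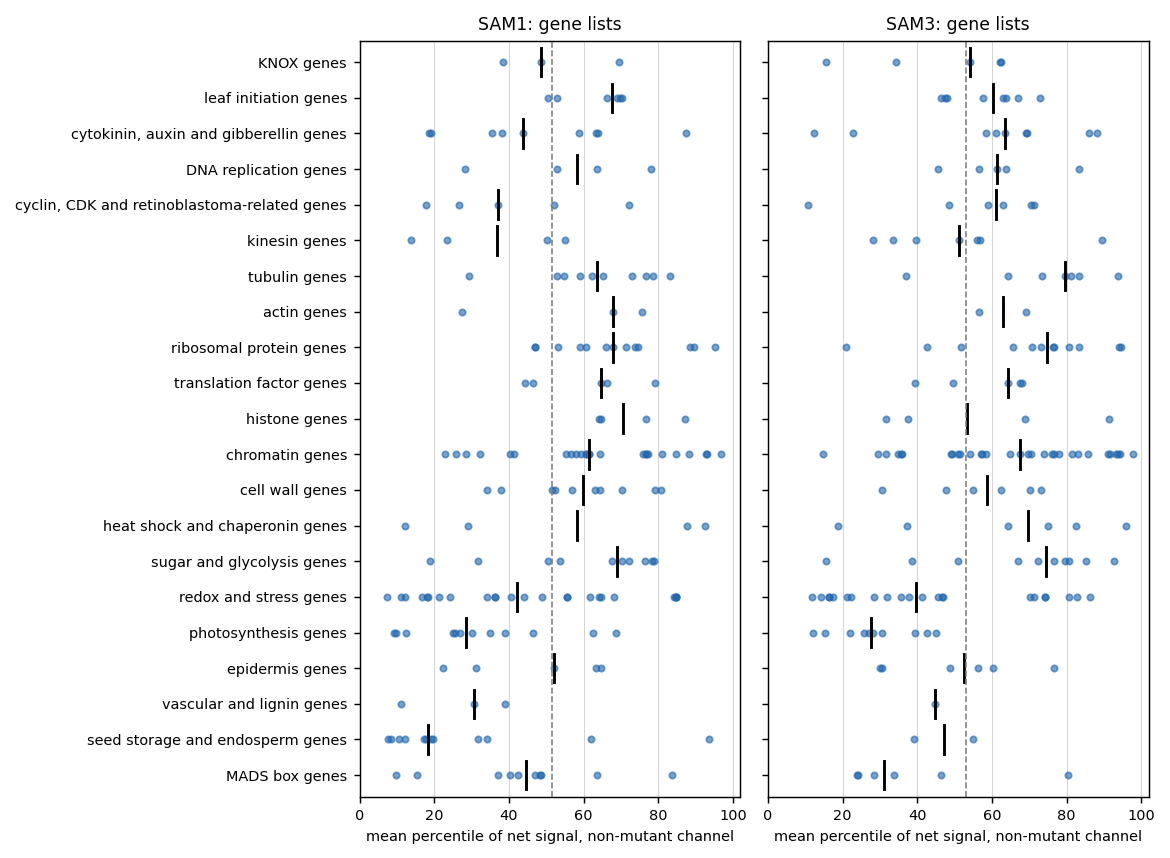
Mean percentile of each member (point) of 21 gene lists, with the list median as a bar, on SAM1 (left) and SAM3 (right), beside the median of all named genes (dashed line, 51.6 and 53.1). Ribosomal protein genes centre at 67.9 and 74.7 and photosynthesis genes at 28.4 and 27.6. The list labelled actin genes holds actin-binding genes only.

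Of the KNOX genes, kn1 (knotted1), which marks undetermined meristem cells, had the highest mean on both arrays, on SAM3 only with the readings of replicate 3 as labelled. On SAM1 it stood at 69.4 ± 3.00, with a lowest replicate of 65.2, a median of 70.4 and a highest of 72.8. On SAM3 it stood at 62.5 ± 5.02, with 54.7, 62.3 and 69.5. On SAM1 kn1 lay above knox7, at 48.7 ± 5.19, in 6 of 6 replicates, and knox7 lay above lg3 (liguleless3), at 38.3 ± 3.58, in 6 of 6. On SAM3 kn1 did not differ in order from lg3, at 62.2 ± 5.73, being higher in 3 of 6 replicates. Replicate 3 of lg3 stood at 51.3 as labelled and 65.1 with its readings exchanged, and the means were then 63.9 for kn1 and 64.5 for lg3. There knox7 stood at 54.1 ± 6.78, knox3 at 34.4 ± 14.5 and knox8 at 15.6 ± 3.60. The probes of kn1 disagreed more than its replicates did. Its 3 SAM1 probes stood at 45.1, 69.4 and 93.8, and its 3 SAM3 probes at 13.7, 78.2 and 95.7.

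In the dissected domes all 6 leaf initiation genes of SAM1 lay at or above percentile 50, with a median of 67.7, and 5 of the 8 of SAM3 did, with a median of 60.3. The YABBY gene yab9, of a family active in leaf primordia, was the highest on both arrays, at 70.3 ± 6.70 and 72.9 ± 4.55. Its SAM1 replicates had a lowest value of 63.1, a median of 68.8 and a highest of 82.4. The MYB gene rs2 (rough sheath2), which represses KNOX genes in leaf cells, stood at 69.7 ± 8.72 and 67.1 ± 9.72. The other YABBY genes of both arrays were yab14, at 69.1 and 57.6, and yab10, at 66.4 and 63.1. A further YABBY gene, yabby15, was named on SAM3 only and stood lower, at 47.5 ± 16.0 over 2 probes. The WOX gene ns2 (narrow sheath2), which recruits founder cells of the leaf margin, stood at 53.0 ± 19.6 on SAM1, with replicates 2, 4 and 6 at 32.2 to 40.0 and replicates 1, 3 and 5 at 64.2 to 73.8. On SAM3 ns2 was at 63.8 ± 6.05, and its duplicate ns1 at 46.4 ± 9.57. The WOX gene wox13B stood at 50.4 and 48.0. Neighbours in this order mostly overlapped, since on SAM1 no gene of the 6 was above the next in all replicates. The rgd2-R and lbl1 mutants both affect leaf polarity in maize, and lbl1 (leafbladeless1), which acts in the making of trans-acting small RNAs, stood at 80.1 ± 3.28 on SAM1 and 81.0 ± 5.43 on SAM3.

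Hormone genes included values from both ends of the scale. The response regulator gene RR9, of cytokinin signalling, stood at 87.5 ± 2.31 on SAM1 and at 12.3 ± 3.68 on SAM3, with 1 probe on each. The response regulator gene RR8, measured on SAM3, stood at 85.9 ± 4.30, with a lowest replicate of 81.0, a median of 84.9 and a highest of 92.8. RR5 was measured on both and stood at 63.8 and 63.6. The histidine kinase genes of cytokinin perception stood at 18.6 ± 11.5 for hk3 on SAM1, and at 69.3 for hk2 and 22.9 for HK1 on SAM3. The auxin-binding protein gene abp1 stood at 63.5 ± 6.63 on SAM1, over 4 probes, and 88.1 ± 6.79 on SAM3, over 1 probe. BA1 (barren stalk1), a gene of axillary meristems, stood at 19.1 ± 4.42 on SAM1. The gibberellin gene an1 was at 43.8 and 69.1.

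**Figure D4:**
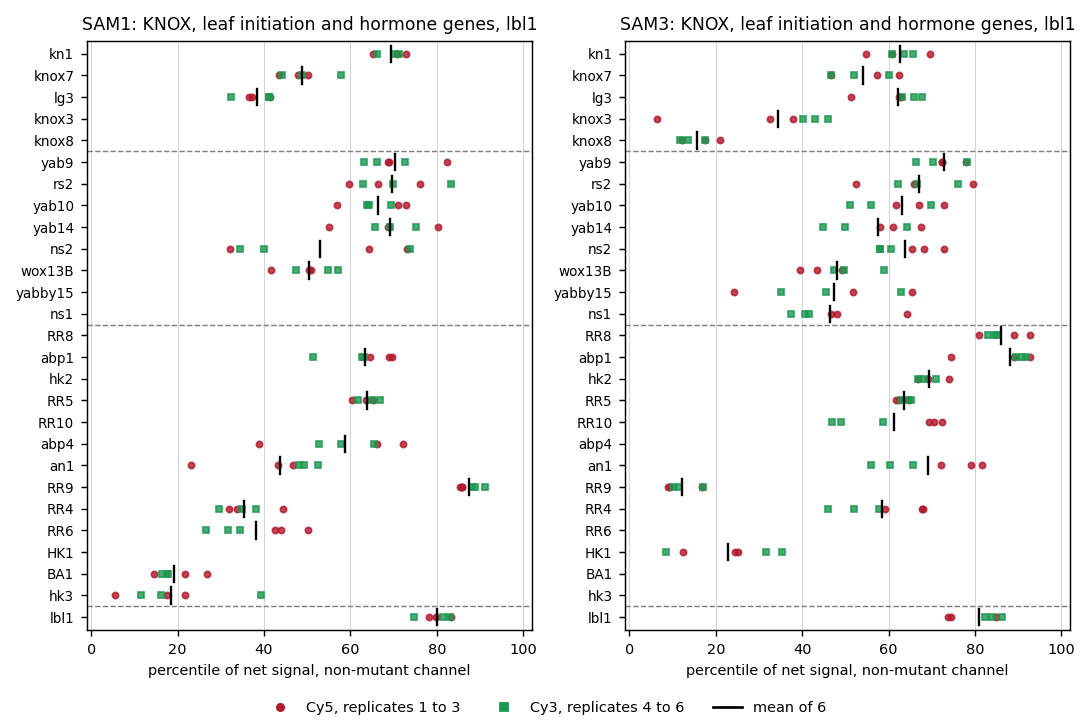
Percentile of net signal in each replicate for KNOX genes (top block), leaf initiation genes, hormone genes and lbl1 (bottom) on SAM1 (left) and SAM3 (right), with Cy5 as circles, Cy3 as squares and the mean of 6 as a bar. A row without points is a gene with no named probe on that array. On SAM1 kn1 sits at 69.4 and RR9 at 87.5, and on SAM3 they sit at 62.5 and 12.3.

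Markers of other tissues were read as well. The series holds no other tissue to compare with, so their ranks cannot check the dissection. The photosynthesis genes had medians of 28.4 on SAM1 and 27.6 on SAM3, below all named genes in 6 of 6 replicates on both, and none reached the top band. The rubisco small subunit gene rbcS stood at 25.6 ± 6.99 and 28.1 ± 9.08 and psaH at 9.31 ± 5.82 and 12.1 ± 4.21. Above percentile 50 were 2 of the 12 SAM1 genes, PSBQ, of photosystem II, at 68.7 ± 3.51, and the antenna gene lhcb5 at 62.6, and none of the 10 SAM3 genes. Seed storage and endosperm genes had a median of 18.4 over 12 genes on SAM1, with betl2 lowest at 7.68 and 8 genes in the bottom band. Here glb2 at 93.5 ± 1.27 and o2, the endosperm bZIP factor gene, at 62.0 stood apart from the other members. On SAM3 this list held GLB1 at 55.1 and zpu1 at 39.1. The 3 vascular and lignin genes of SAM1 stood at 39.1 for ccr2, 30.7 for PAL1 and 11.0 for BM1, and ccr2 was at 44.8 ± 16.4 on SAM3. The part of RNA from other tissues in these values was not tested.

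Epidermal genes, whose cells belong to the dome, had medians of 51.9 and 52.5. The outer cell layer homeobox gene ocl1 was the highest on both arrays, at 64.6 ± 4.75 and 76.6 ± 8.54. Next came brk1, which acts in the lobing of epidermal cells, at 63.4 and 60.4. The lowest were ocl2 at 22.3 on SAM1 and cr4 (crinkly4), a receptor kinase gene, at 29.9 on SAM3. MADS box genes, best known from flowers, had medians of 44.6 and 31.1. MADS67 was highest on SAM1 at 83.6 ± 7.65 but stood at 24.1 on SAM3, and zmm19 was highest on SAM3 at 80.4 ± 4.56.

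Other named genes, some of them members of these lists, lay between percentile 21.0 and 89.9. The glycine-rich RNA-binding protein gene grp1 stood at 74.5 ± 3.07 on SAM1, over 28 probes from 23.3 to 99.9, and at 89.9 ± 2.67 on SAM3. The HMG gene nfd106 stood at 59.2 and 81.4, and the bZIP factor gene lip15 at 85.1 ± 3.42 and 77.2 ± 11.3. The sucrose synthase gene sh1 was at 72.2 and 66.9. The calmodulin gene CaM1 lay near the middle, at 43.9 ± 3.74 and 57.8 ± 5.65. The ascorbate peroxidase gene apx2 was lower, at 34.0 and 21.0. The epidermal gene gl8, of wax synthesis, stood at 31.2 and 48.8, and the epidermal gene dek1 at 56.2 on SAM3.

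The largest spread between replicates belonged on SAM1 to m26, ppt2, RPS10, LOC542000 and TPS9. TPS9 stood at 14.2 to 25.4 in replicates 1, 3 and 5 and at 55.9 to 64.1 in replicates 2, 4 and 6, with a mean of 38.7 ± 23.1. On SAM3 the largest spread belonged to RPL19, gln2, pk8-a, AGA3b and DLF1. The gene gln2, a glutamine synthetase gene, stood at 82.6 and 88.6 in replicates 2 and 4 and at 15.6 to 32.6 in the other four, with a mean of 46.6 ± 30.9. For RPL19 the SD was 34.1, and 5 replicates lay at 93.5 to 96.2 with replicate 3 at 11.0. A mean percentile of these genes stands for values that lie apart.

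The same gene often ranked differently on the 2 arrays, which carry different probes. Of 415 genes named on both, 196 had overlapping replicate ranges. The rank correlation over these genes was 0.44, and the median absolute difference was 15.5 points. The top bands shared 36 genes, 44.4% of the 81 on SAM1 and 37.9% of the 95 on SAM3. The bottom bands shared 33 genes, 45.2% of the 73 and 50% of the 66, and 12 genes were in the top band of one array and the bottom band of the other. The 5 genes with the largest differences were KIN13, PLTP, RR9, pip1b and qsox1. The aquaporin gene pip1b stood at 9.59 on SAM1 and 84.6 on SAM3, and qsox1, a sulfhydryl oxidase gene, at 90.8 and 20.5. PLTP stood at 97.2 on SAM1, over 1 probe, and at 21.4 on SAM3, over 4 probes.

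**Figure D5:**
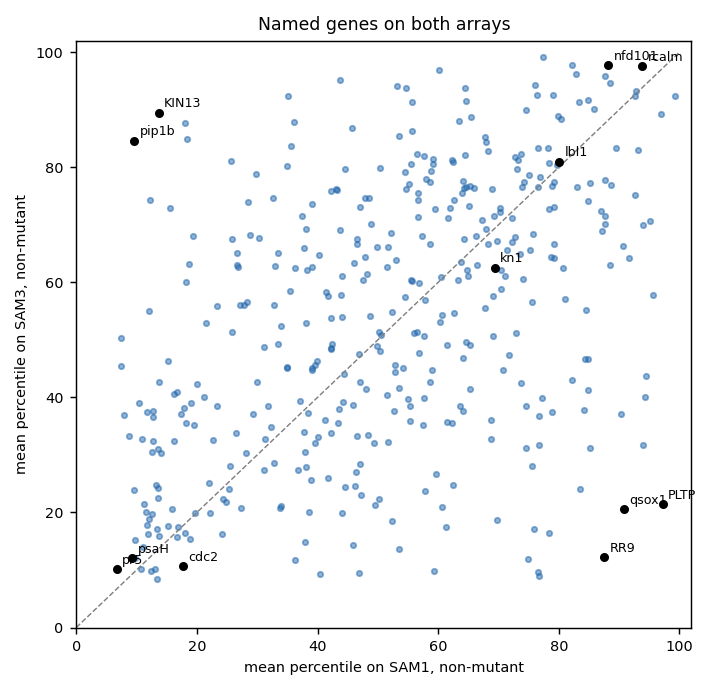
Mean percentile in the non-mutant channel on SAM1 (x) and SAM3 (y) for the 415 genes named on both arrays, 1 point per gene, with equality as a dashed line and some genes of the text in black. The points scatter widely (rank correlation 0.44), and RR9, PLTP and qsox1 lie at the lower right and KIN13 and pip1b at the upper left.

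Probes of 1 gene on 1 array also differed. The median absolute difference of a pair of probes of one gene was 22.0 points on SAM1 and 24.5 on SAM3, against 28.0 for any pair of named probes on either array. The 300 genes with several probes on SAM1 had a median probe range of 39.8 points, and the 263 on SAM3 one of 32.9. The gene MNB1b, of an HMG-type DNA-binding protein, had 230 probes on SAM1, from 7.08 to 99.8, and a mean of 88.7 ± 1.82. That name comes from an old annotation, and whether it is right for all 230 probes was not tested. For the 197 sequence accessions spotted on both arrays the difference was smaller, with a median of 7.01 points and a rank correlation of 0.765. The 48 accessions listed at a pair of SAM3 spots had a median difference of 27.8 points and a rank correlation of 0.073, so these spots were no more alike than any pair. Both spots of such a pair carry the same accession in the platform annotation, and whether they hold the same DNA was not tested.

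Over both arrays, 347 genes had 3 or more probes. In 7 of them every probe lay in the top band, and in 7 every probe lay in the bottom band. These 14 genes were picked out after their values were seen. The high genes were rcalm, whose 8 probes ran from 90.2 to 98.5, the chromatin genes nfc102, from 90.5 to 95.9, and nfa101, from 80.6 to 98.4, and hsp70-5, whose 9 probes ran from 75.2 to 99.5. GRP, ATP2 and lip15, a bZIP factor gene, were the others. The low genes were cdc2, the catalase gene CAT3, whose 5 probes ran from 7.96 to 16.2, the ferredoxin gene fdx2, from 10.2 to 13.9, piip1, LOC606477, the fatty acid desaturase gene fad7 and GLN6.

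The dye carried by the non-mutant RNA was compared between replicates 1 to 3 (Cy5) and 4 to 6 (Cy3). On log2 signals limma called 0 of 19200 spots on SAM1, a called share of 0%, with a smallest adjusted p of 0.986 and 805 spots at an unadjusted p under 0.05, where 5% of the spots are 960. On SAM3 limma called 0 of 16000 spots, a called share of 0%, with a smallest adjusted p of 0.139 and 2460 spots at an unadjusted p under 0.05, where 5% are 800. With the low and mid readings of SAM3 replicate 3 exchanged, limma again called 0 spots, with 1114 at an unadjusted p under 0.05 and a smallest adjusted p of 0.681. The values of the Cy5 and Cy3 replicates did not overlap for 9.76% of SAM1 spots and 20.9% of SAM3 spots. With 3 replicates per dye, part of the spots show such a gap without any dye difference, and these shares were not tested. The p-values rest on the spread between 3 samples per dye. Over the alternatives the spots at an unadjusted p under 0.05 ran from 531 to 3415 on SAM1 and from 762 to 4147 on SAM3. In a fit of Cy5 minus Cy3 within each slide, with both channels and the genotype in the model, limma also called 0 spots on both arrays, with 1878 and 762 spots at an unadjusted p under 0.05.

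Among named probes the smallest unadjusted p-values on SAM1 belonged to abp1, lip15, rps27, mdh4 and 1 probe of MNB1b, brighter with Cy5, and to PLTP, GRF2, LOC542358, pdi2 and CesA-1, brighter with Cy3. The abp1 probe had log2 signals of 10.2, 9.83 and 10.2 with Cy5 and of 9.26, 9.31 and 9.26 with Cy3. The difference was 0.80 on the log2 scale (SE 0.14, limma adjusted p = 0.986). For PLTP the Cy5 minus Cy3 difference was -0.93 (SE 0.17, limma adjusted p = 0.986). On SAM3 the probes brighter with Cy5 were those of pdh2 (541700), RR10, GP, kin4 and cdpk*-D84508, and those brighter with Cy3 were of MNB1b, LOC542458, magi50422, LOC778431 and rps27. The RR10 probe had log2 signals of 9.54, 9.39 and 9.51 with Cy5 and of 8.48, 8.89 and 8.41 with Cy3, a difference of 0.89 (SE 0.15, limma adjusted p = 0.139). None of these 20 probes passed the threshold.

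In the rgd2-R channel of the same slides the replicates carry the opposite dyes, and these probes leaned the other way by dye. The Cy5 minus Cy3 difference there was -0.24 for abp1, 0.79 for PLTP and -0.42 for RR10. The rps27 probe of SAM3 had -0.81 in the non-mutant channel and 0.84 in the rgd2-R channel. Over all spots the differences of the channels correlated at -0.605 on SAM1 and -0.797 on SAM3, points that share slides. A spot brighter in replicates 1 to 3 in one channel was therefore mostly brighter in replicates 1 to 3 in the other too, whichever dye it carried. In the fit within slides, the Cy5 minus Cy3 difference was 0.27 for the abp1 probe (SE 0.09) and -0.06 for PLTP (SE 0.10). For the SAM3 probes, with readings as labelled, it was 0.24 for RR10 (SE 0.12) and -0.006 for rps27 (SE 0.20).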

How the data were processed

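The deposited files give the intensity of each spot as mean signal and mean local background for Cy3 and Cy5, before any correction or normalization, as the column names show per the file headers. The image software was not given in the sources used here, and the authors' deposited log ratios were not used. The channel of the non-mutant RNA was taken from the labels. Gene names came from the platform annotation, and 562 of 583 SAM1 genes and 580 of 598 SAM3 genes were found in the current maize gene table. A probe with several genes (23 on SAM1, 1 on SAM3) was left unnamed. No sequences or genome coordinates were used.

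Percentiles were computed in Python 3.11.15 with numpy 2.4.6 and pandas 2.3.3, and probes of a gene were averaged. For the dye comparison, signals were corrected with normexp (offset 50), log2-transformed, quantile-normalized between readings of an array design, averaged over 3 readings and fitted with lmFit and eBayes in limma 3.58.1 under R 4.3.3. The tests were two-sided, with Benjamini-Hochberg adjustment over all spots at 0.05. Tested on simulated data with the real spots, this fit recovered 34% of changes of 1 log2 unit and 77% of changes of 2 log2 units on SAM1, and 44% and 87% on SAM3. The number of arrays limits the precision.

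Genes were named by rule: per array the 15 highest and 10 lowest, the highest and lowest of each of 22 gene lists (all members of lists with at most 5), the genes that the parts of the series are about, the 5 with the largest SD and the 5 that differ most between arrays, and for the dye comparison the 5 named probes with the smallest p in each direction. Other members of a list are given as examples beside its count. Some genes that the rule names, such as his1, pcna1, OBF1 and gst28, are not given a value in the text. The anthocyanin list had no member on either array, and 3 names that matched a list by symbol alone were taken out. Lists were matched by whole symbols, so genes of the same kind with another spelling, such as tif5A, CesA-1 and nfa104, are outside them. The genes and lists were chosen with earlier results of these data known. Alternatives covered the background correction, the reading, the dye, the probe rule, each replicate left out and the exchange of readings in SAM3 replicate 3. A dye fit within slides and list medians with other spellings were added after seeing the data.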

Additional observations from a re-analysis of the deposited data

Results flagged for a closer look

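The 6 replicate percentiles of 205 named genes, 105 on SAM1 and 100 on SAM3, were searched for 1 replicate far from the other 5, by the gap to its nearest neighbour as a share of the whole range. Chance picks about 1 in 20 such groups, and 25 were found. The genes searched include the 5 with the largest SD on each array, chosen for their spread, and that rate does not hold for them. Of the 25, m26, ppt2, RPS10, LOC542000, RPL19 and pk8-a are such genes. Of the 11 on SAM3, 7 lay in replicate 3, whose low and mid readings went against their channel labels.

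On SAM1, replicates stood far below the others for m26 in replicate 2 (30.0 against 97.9 to 99.8), ppt2 in replicate 4 (20.1 against 82.0 to 87.5) and RPS10 in replicate 6 (0.01 against 42.3 to 66.2). LOC542000 stood at 67.3 in replicate 3 against 4.85 to 19.8, and its mean without that replicate was 11.8. Smaller gaps were found for his1a in replicate 4 (57.7 against 78.0 to 83.1), EF1A in replicate 4 (70.6 against 64.6 to 66.7), annexin2 in replicate 3 (87.6 against 94.3 to 97.4), HRGP in replicate 5 (75.2 against 80.7 to 83.3) and betl2 in replicate 5 (19.1 against 2.92 to 6.95). In replicate 2 gst41 stood at 80.3 against 84.8 to 86.6 and rcalm at 91.6 against 93.8 to 94.7. In replicate 6 GRP stood at 98.1 against 99.1 to 99.7, LOC100037796 at 0.777 against 7.28 to 10.6 and HSP18 at 8.41 against 12.1 to 13.8.

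On SAM3, the ribosomal protein gene RPL19 stood at 11.0 in replicate 3 against 93.5 to 96.2, and at 5.72 with the readings exchanged. The other genes of replicate 3 moved towards the rest with the exchange. There ALDH10A5 went from 90.6 to 95.2 (others 96.5 to 97.8), nfa104 from 86.7 to 92.8 (96.5 to 97.2), lg3 from 51.3 to 65.1 (62.4 to 67.7), dhn2 from 72.2 to 84.2 (85.7 to 91.5), grp1 from 84.7 to 90.1 (89.6 to 92.3) and dek1 from 39.6 to 47.0 (56.5 to 61.0). In replicate 2 knox3 stood at 6.34 against 32.5 to 46.1, abp1 at 74.5 against 89.2 to 92.7 and pk8-a, a protein kinase gene, at 15.8 against 61.9 to 80.2. In replicate 1 trxh1, a thioredoxin gene, stood at 63.4 against 81.0 to 90.9.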

How the results depend on the processing

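Across all alternatives the order of named genes correlated with that reported at 0.988 or more, apart from the brightest probe in place of the mean of probes (0.894 on SAM1, 0.896 on SAM3). With the brightest probe 219 SAM1 genes and 215 SAM3 genes lay in the top band, against 101 and 125, which the choice of the brightest by construction raises. Under the other alternatives the top band held 99 to 104 genes on SAM1 and 109 to 135 on SAM3, and the bottom band 106 to 115 and 84 to 101. The mean of a gene moved by more than its SD over replicates for 43 of 105 SAM1 genes and 26 of 100 SAM3 genes with the brightest probe, for 14 and 19 with median signals, and for at most 4 on either array with 1 reading alone or with no background subtracted. The dye comparison of SAM3 called 0 spots, and it called 1 spot with no background subtracted, 1 with the dimmest 25% of spots left out and 84 with median scaling, 16 brighter with Cy5 and 68 with Cy3; the cause was not tested. Leaving out each replicate in turn gave 0 to 0 calls on both arrays, and smallest limma adjusted p-values over all alternatives ran from 0.277 to 1.0 on SAM1 and from 0.0314 to 1.0 on SAM3. The Cy5 and Cy3 replicate sets of one genotype share no replicate number. A fit with the slide as a replicate block, which pairs both channels and was added after seeing the data, called 0 spots on SAM1 and 0 on SAM3. On SAM3 it also called 0 with the readings of replicate 3 exchanged (1186 spots at an unadjusted p under 0.05) and 0 without replicate 3 (996). Its dye difference is one over both genotypes. Adding genes of other spellings to 5 lists, also chosen after seeing the data, moved a median by 0.0 to 5.296 points. Low genes lie near background, so their order is not resolved.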
